A study of Mus musculus with 20 samples.

Results

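Neutrophil granule genes, 7 in number (S100a8, S100a9, Lcn2, Ngp, Camp, Ltf and Mmp8), were followed among the 54838 genes counted in sorted mouse microglia. They were chosen by name, as transcripts that neutrophils make in large amounts, and all 7 were found in the files by gene symbol. Microglia are the resident macrophages of the brain. The protocol text in the labels gives 1000 cells for each mouse, taken from the frontal cortex by flow cytometry on high CD11b, an integrin carried by microglia and by neutrophils alike, and low CD45, which is set to keep microglia apart from blood leukocytes. All mice were at postnatal day 40, and each of the 20 libraries comes from 1 mouse. The genotype labels are hC4A/A (n = 2), hC4A/- (n = 5), hC4B/- (n = 4), C4-/- (n = 5) and WT (n = 4), where C4 acts early in the classical pathway of complement, and the prefix h marks a human gene. The labels do not state what the 3 genotypes with human C4 carry at the mouse C4 locus, or how the human genes are driven.

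Neutrophils are short-lived leukocytes that kill microbes with proteins stored in granules, and they load these granules in sequence while they mature in the bone marrow. Azurophil granules form first, with the peroxidase Mpo and serine proteases such as Elane. Specific and gelatinase granules form later and hold lactoferrin (Ltf), lipocalin 2 (Lcn2), the cathelicidin-family proteins Camp and Ngp, and collagenase (Mmp8). S100a8 and S100a9 belong with them by cell type rather than by compartment: their proteins pair to form calprotectin, which fills the cytosol of neutrophils, binds zinc and calcium, and signals through Tlr4 when released. In the healthy brain parenchyma neutrophils are rare, and Lcn2 can also be made by reactive astrocytes.

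S100a8 (ENSMUSG00000056054) lies on GRCm38 chr3:90668978-90670035 on the plus strand, and S100a9 (ENSMUSG00000056071) lies 22.6 kb from it at chr3:90692632-90695721 on the minus strand. Camp (chr9:109847379-109849617, minus strand), Ngp (chr9:110419747-110423012, plus strand) and Ltf (chr9:111019271-111042767, plus strand) share a stretch of chromosome 9, with 570.13 kb between Camp and Ngp and 596.26 kb between Ngp and Ltf. Mmp8 is elsewhere on that chromosome (chr9:7558456-7568485, plus strand), and Lcn2 is at chr2:32384633-32388252 on the minus strand. All 7 are protein-coding, and none overlaps another annotated gene. Of the 7, all matched an entry in the RefSeq promoter table (GRCm38.p6). The windows of 250 bases before the start of S100a9, Ltf and Mmp8 are shown, as 1 gene each of calprotectin, of specific granule iron binding and of tissue-degrading enzymes, and because at most 21 of their bases fall inside the GENCODE gene. They run 5′ to 3′ on the gene's strand, and capitals mark matches to the 8-letter patterns TTNNGNAA or TTNCNNAA, the 2 strands of a motif like that of the C/EBP factors that drive granulocyte maturation, and to GAGGAAG or CTTCCTC, like that of PU.1.
S100a9, chr3:90695722-90695971, minus strand: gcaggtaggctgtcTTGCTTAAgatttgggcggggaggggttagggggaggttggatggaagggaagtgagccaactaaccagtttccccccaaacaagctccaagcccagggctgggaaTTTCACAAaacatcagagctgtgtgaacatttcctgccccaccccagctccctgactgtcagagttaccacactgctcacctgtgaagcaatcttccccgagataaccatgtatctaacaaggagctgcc
Ltf, chr9:111019042-111019291, plus strand: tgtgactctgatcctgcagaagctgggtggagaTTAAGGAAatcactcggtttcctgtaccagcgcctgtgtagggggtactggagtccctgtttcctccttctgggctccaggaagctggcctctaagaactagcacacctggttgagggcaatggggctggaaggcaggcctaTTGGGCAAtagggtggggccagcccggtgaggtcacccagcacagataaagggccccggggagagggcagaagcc
Mmp8, chr9:7558179-7558428, plus strand: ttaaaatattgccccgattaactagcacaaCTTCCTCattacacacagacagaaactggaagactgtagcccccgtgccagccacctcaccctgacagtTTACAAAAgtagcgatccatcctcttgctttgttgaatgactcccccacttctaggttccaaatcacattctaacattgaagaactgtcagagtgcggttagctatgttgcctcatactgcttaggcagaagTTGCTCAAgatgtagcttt

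The C/EBP-like pattern occurred in the windows of 6 of the 7 genes, all but Camp, and in 36.8% of the 32851 promoters in the table. Ngp held 3 matches, at 138, 102 and 11 bases before its start. Ltf held 2, at 217 and 75 bases, S100a9 held 2, at 236 and 130 bases, and Mmp8 held 2, at 151 and 19 bases. The PU.1-like pattern occurred in 3 of the 7 (S100a8, Lcn2 and Mmp8) and in 10.6% of all promoters. The patterns do not overlap one another in these windows. The windows not shown lie partly inside the GENCODE gene: all of that of Lcn2, and 161, 93 and 61 bases of those of Camp, S100a8 and Ngp. These are matches of letters in short windows and do not show that a factor binds there.

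Each library held between 855099 and 2735181 counts over genes, with a median of 1710215.5. The predicted gene Gm10800 took 9.61% to 65.9% of them. In the libraries labelled C4-/-, hC4A/-, hC4B/- and hC4A/A, mouse C4b held 4 to 428 counts each, against 0 to 2 counts in those labelled WT, so the C4b counts go against a plain reading of the labels. Genotype names below are those of the labels, and every direction drawn between genotypes rests on them. The libraries hC4A/A replicate 2, hC4B/- replicate 2, hC4B/- replicate 3 and C4-/- replicate 3 stood apart, with 27178 to 30907 detected genes, against 11348 to 23912 in the other 16, and are called the 4 broad libraries. The deposited names of the WT libraries follow another numbering than those of the other genotypes. The labels do not say whether they were prepared apart, which cannot be told apart from genotype here. The markers of the labelled cell type were present: all 14 homeostatic microglia genes, P2ry12, Tmem119 and Cx3cr1 among them, were detected in every library, and their summed level was 5049 to 10712 CPM (counts scaled to a common library size with TMM factors).

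Neutrophil granule transcripts came to 4176 counts over the 20 libraries, and they were unevenly spread. The libraries labelled hC4A/A held 256 of them, hC4A/- 437, hC4B/- 346, C4-/- 263 and WT 2874, which is 68.8% of all. A single library, WT replicate 2, held 1988, or 47.6%. By gene, S100a9 had 1789 counts, S100a8 857, Lcn2 449, Camp 446, Ngp 343, Ltf 166 and Mmp8 126. In a bulk sample, fewer cells of a type and less RNA per cell cannot be told apart.

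The genes tended to be present together or missing together. Of the 20 libraries, 14 contained at least 5 of the 7 genes, and 5 contained at most 1. The 14 include the 4 broad libraries, in which 27178 to 30907 genes of any kind were detected, against 11348 to 23912 elsewhere. Among them, C4-/- replicate 3 had 6 of the 7 genes from 9 counts. In hC4B/- replicate 2 and hC4A/A replicate 2 all 7 were found from 25 and 36 counts. Detection alone therefore says little in these libraries. By number of counts, 11 libraries held at least 50 counts of the 7 genes and 6 held at most 5. Those with at least 50 were 1 of 2 hC4A/A, 3 of 5 hC4A/-, 2 of 4 hC4B/-, 1 of 5 C4-/- and 4 of 4 WT libraries. Those with at most 5 were 2 hC4A/-, 1 hC4B/- and 3 C4-/- libraries. Libraries with and without the transcripts therefore occurred within 3 of the 5 genotypes.

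**Figure D1:**
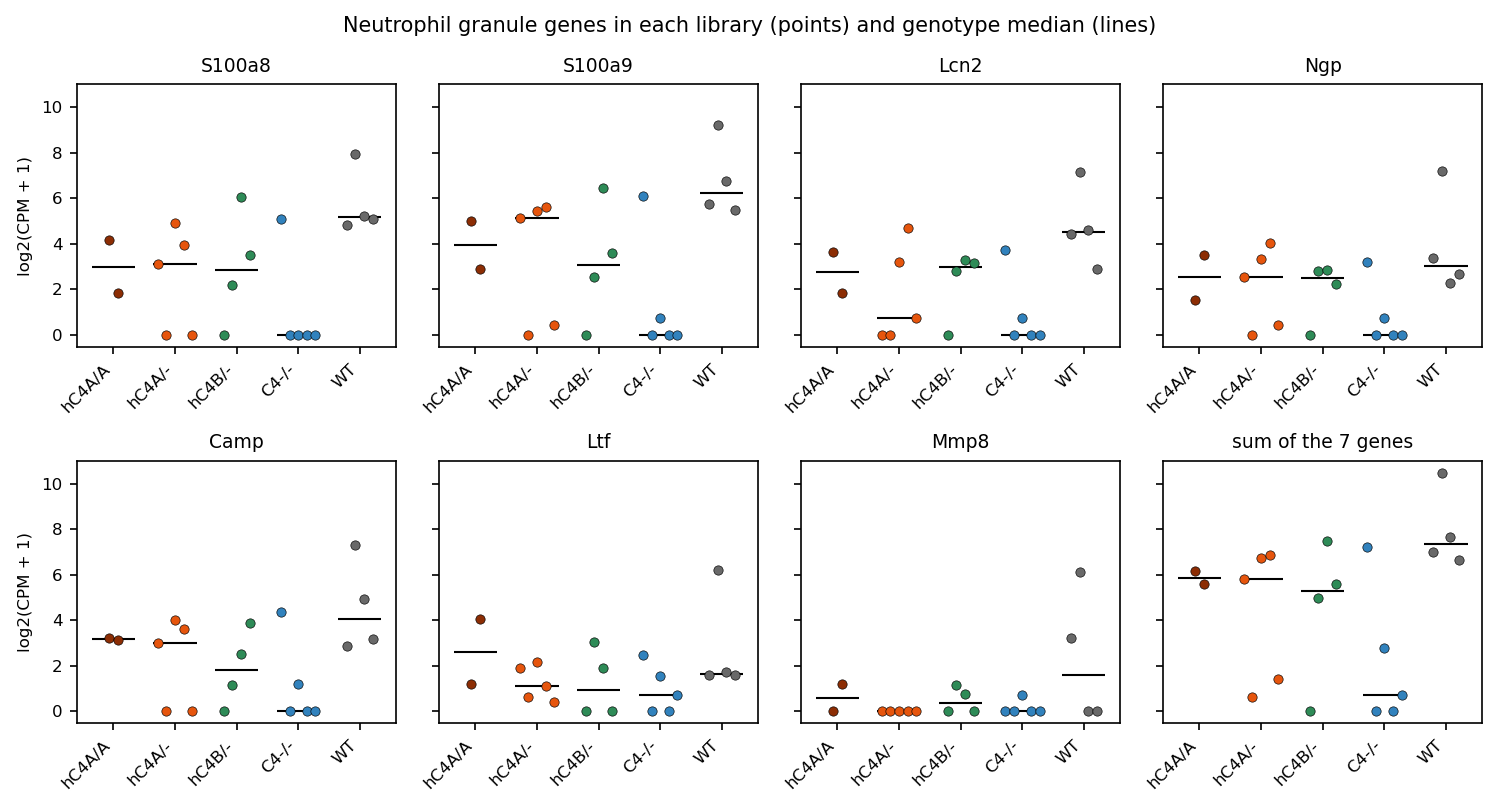
Level of each gene, as log2(CPM + 1), in every library (points) of the 5 genotypes, with the genotype median as a line; the last panel shows the sum over the 7 genes. WT replicate 2 is the highest point in every panel, and hC4A/-, hC4B/- and C4-/- each contain libraries at or near 0.

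The summed level of the 7 genes was 70.9 and 46.6 CPM in the hC4A/A libraries. It was 55.9, 0.537, 106, 114 and 1.70 CPM in hC4A/-, and 0, 30.2, 175 and 46.8 CPM in hC4B/-. The C4-/- libraries had 146, 0, 5.90, 0 and 0.665 CPM, and the WT libraries had 127, 1415, 201 and 99.1 CPM. All 4 WT libraries were therefore above 12 of the 16 others, and the other 4 (C4-/- replicate 1, hC4A/- replicates 3 and 4, and hC4B/- replicate 3) lay within the WT range. The means were 58.8 ± 17.2 CPM in hC4A/A (SD, n = 2), 55.7 ± 54.6 in hC4A/- (n = 5), 62.96 ± 77.1 in hC4B/- (n = 4), 30.4 ± 64.4 in C4-/- (n = 5) and 460 ± 638 in WT (n = 4). From the highest, the order was thus WT, hC4B/-, hC4A/A, hC4A/- and C4-/-, and no neighbouring means in this order were farther apart than the larger of their SDs. Without WT replicate 2, WT averaged 142 ± 52.6 CPM (n = 3). Without C4-/- replicate 1, C4-/- averaged 1.64 CPM, and without hC4B/- replicate 3, hC4B/- averaged 25.6 CPM.

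The calprotectin genes S100a8 and S100a9 were detected in 13 and 15 of the 20 libraries. S100a9 was at 31.0 and 6.48 CPM in hC4A/A, at 33.8, 0, 41.9, 47.4 and 0.340 CPM in hC4A/-, at 0, 4.82, 86.4 and 10.96 CPM in hC4B/-, at 67.9, 0, 0.655, 0 and 0 CPM in C4-/-, and at 52.4, 589, 106 and 43.9 CPM in WT. S100a8 was at 16.8 and 2.59 CPM in hC4A/A, at 7.59, 0, 28.8, 14.6 and 0 CPM in hC4A/-, at 0, 3.62, 65.3 and 10.2 CPM in hC4B/-, at 33.4 CPM in 1 C4-/- library and 0 in the other 4, and at 27.7, 243, 36.8 and 33.3 CPM in WT. For each of the pair, 3 of the 16 libraries of the other genotypes exceeded the lowest WT library and none exceeded the highest. These 3 were C4-/- replicate 1 and hC4B/- replicate 3 for both genes, with hC4A/- replicate 4 for S100a9 and hC4A/- replicate 3 for S100a8.

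The proportion of S100a9 to S100a8 varied between libraries. The intervals given here cover counting error only. They leave out amplification and were not adjusted for choosing the extreme libraries. S100a9 made up 51.7% to 81.7% of the pair's counts in the 11 libraries with at least 29 counts of the pair. It was 67.0% in C4-/- replicate 1, with a Wilson 95% interval of 59.8% to 73.6%, and 70.8% in WT replicate 2 (68.2% to 73.4%). The lowest and the highest share were in hC4B/- replicate 4 (34.4% to 68.6%) and hC4A/- replicate 1 (70.1% to 89.4%), whose intervals do not overlap. Within WT the intervals of replicate 3 (67.5% to 79.9%) and replicate 4 (49.7% to 63.7%) do not overlap either. Per kilobase of exon, S100a9 was the highest of the 7 genes in all 11 libraries with at least 50 counts of the group. S100a8 came next in 10 of them and Camp in 1.

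Camp and Ngp, which encode antimicrobial proteins of the cathelicidin family, were detected in 14 and 15 libraries. Camp was at 8.38 and 7.77 CPM in hC4A/A, at 6.90, 0, 15.1, 11.1 and 0 CPM in hC4A/-, at 0, 1.21, 4.76 and 13.9 CPM in hC4B/-, at 19.6, 0, 1.31, 0 and 0 CPM in C4-/-, and at 6.34, 159, 29.1 and 8.13 CPM in WT. Ngp was at 1.93 and 10.4 CPM in hC4A/A, at 4.83, 0, 8.92, 15.2 and 0.340 CPM in hC4A/-, at 0, 6.03, 6.13 and 3.65 CPM in hC4B/-, at 8.05, 0, 0.655, 0 and 0 CPM in C4-/-, and at 9.35, 144, 3.83 and 5.28 CPM in WT. For both genes 7 of the 16 other libraries lay above the lowest WT library. WT replicates 1 and 4 were within the range of the other genotypes for both genes, and so was WT replicate 3 for Ngp.

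Lcn2 and Ltf code for proteins that deny iron to microbes, Lcn2 by binding bacterial siderophores and Ltf by binding the metal itself. Lcn2 was at 11.6 and 2.59 CPM in hC4A/A, at 0, 0, 8.24, 24.6 and 0.681 CPM in hC4A/-, at 0, 6.03, 8.85 and 8.04 CPM in hC4B/-, at 12.1, 0, 0.655, 0 and 0 CPM in C4-/-, and at 20.7, 140, 23.0 and 6.50 CPM in WT. Ltf was at 1.29 and 15.5 CPM in hC4A/A, at 2.76, 0.537, 3.43, 1.17 and 0.340 CPM in hC4A/-, at 0, 7.24, 2.72 and 0 CPM in hC4B/-, at 4.60, 0, 1.97, 0 and 0.665 CPM in C4-/-, and at 2.00, 71.9, 2.30 and 2.03 CPM in WT. Apart from WT replicate 2 the WT libraries had 3 to 6 counts of Ltf each, so that the other WT libraries lay inside the range of the other genotypes. For each gene, 6 of the 16 other libraries were above the lowest WT library. Ltf was the most widely detected of the 7, in 16 libraries, and its second highest count, 12, was in the broad library hC4A/A replicate 2.

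Mmp8, the neutrophil collagenase, was the gene most restricted to a few libraries. It held 1 count in hC4A/A replicate 2, 1 each in hC4B/- replicates 2 and 3, 1 in C4-/- replicate 3 and 0 in all 5 hC4A/- libraries, against 25 counts in WT replicate 1, 97 in WT replicate 2 and 0 in the other 2 WT libraries. The 4 libraries with 1 count are the 4 broad ones, so none of the other 12 libraries of these genotypes held a count. Over each group's libraries together, Mmp8 was at least 46.9-fold lower in hC4A/- than in WT, with 3 counts over all its libraries taken as the floor. WT exceeded hC4A/A by a ratio of 57.9 (exact 95% counting interval 10.2 to 2304), hC4B/- by 44.9 (12.2 to 375) and C4-/- by 115 (20.3 to 4581). These values rest on WT replicate 2. Without it WT holds 25 counts in 1 of 3 libraries, the bound for hC4A/- becomes at least 11.6-fold lower, and the ratios become 14.3 (2.34 to 588) for hC4A/A, 11.1 (2.77 to 96.8) for hC4B/- and 28.5 (4.66 to 1169) for C4-/-. The bounds and intervals cover counting error only, and 2 of the 4 WT libraries were at 0 as well.

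The make-up of the transcripts differed between libraries, and the intervals given here cover counting error only as well. S100a8 and S100a9 together made up 45.3% to 86.8% of the counts of the 7 genes, with a median of 67.3%, over the 11 libraries with at least 50. The highest share, in hC4B/- replicate 3 (Wilson 95% interval 82.1% to 90.4%), and the lowest, in hC4B/- replicate 4 (33.7% to 57.4%), belonged to 1 genotype. The share was 69.6% in C4-/- replicate 1 (63.6% to 74.9%) and 58.8% in WT replicate 2 (56.6% to 60.9%). WT replicate 4, with 77.9% (72.3% to 82.6%), stood above WT replicate 2, and their intervals do not overlap. The intervals leave out amplification and were not adjusted for choosing these libraries, so a difference between mice was not tested.

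**Figure D2:**
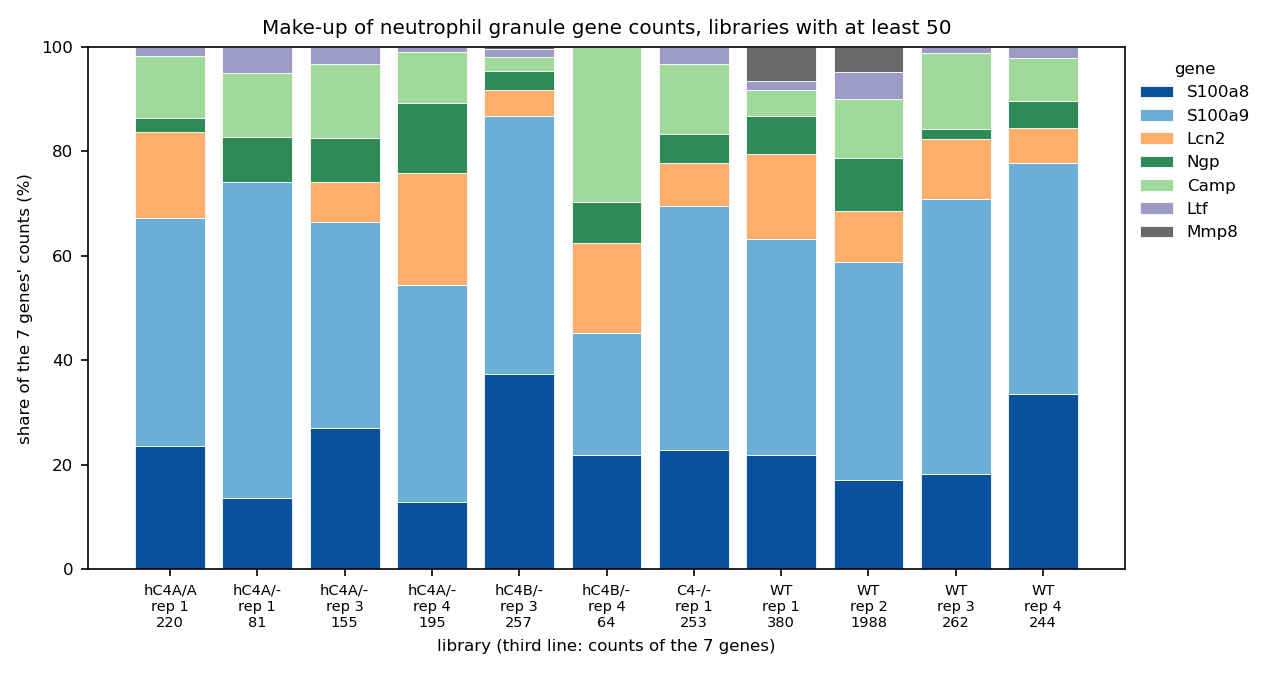
Share of each of the 7 genes (percent, stacked) in their summed counts, for the 11 libraries with at least 50 such counts, whose number stands on the third line under each bar. S100a8 and S100a9 (blue) take 45.3% to 86.8%, and Mmp8 (dark grey) is visible in WT replicates 1 and 2.

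Each genotype was next compared with WT to ask whether neutrophil granule transcripts differ with the C4 genotype. None of the 7 genes passed at an adjusted p under 0.05 in edgeR's quasi-likelihood test, in hC4A/A, hC4A/-, hC4B/- or C4-/- against WT or in the 4 other genotypes together against WT. The background is the same, since 0% of the 12680 genes tested passed in each of these contrasts. All 7 genes passed the filter on low counts, which asks for at least 5.85 CPM of all gene counts in at least 2 libraries. Mmp8 reached this in WT replicates 1 and 2 and in no other library, and Ltf in 1 WT library and 1 other. Both therefore passed only with the help of the group in which they are highest. They are left out of the medians that follow unless stated, and of the counts at an unadjusted p under 0.05 against WT. Counts after adjustment keep all 7. The other 5 genes (S100a8, S100a9, Lcn2, Ngp and Camp) reached the filter's level in 5 to 8 of the 16 libraries outside WT. Every fitted log2 fold change of these 5 was below 0, against 45.4%, 52%, 45.4%, 39.1% and 45.4% of all genes in the 5 contrasts. Their median was -2.77 in hC4A/A, -2.93 in hC4A/-, -3.05 in hC4B/-, -3.83 in C4-/- and -3.17 in the 4 together, against a median over all genes of 0.18, -0.05, 0.18, 0.33 and 0.15. The contrasts share the 4 WT libraries, so the 5 sets of values are not independent of each other. The 5 genes also varied together over the libraries. Each had a Pearson correlation of 0.906 to 0.942 with the mean of the other members. Counts out of 5 are therefore not counts of 5 separate results.

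At an unadjusted p under 0.05 in edgeR, 0 of the 5 genes were lower in hC4A/A, 5 in hC4A/-, 2 in hC4B/- (Ngp and Camp), 5 in C4-/- and 5 in the 4 together. The share of all genes lower by that rule was 1.07%, 4.12%, 3.83%, 2.79% and 4.7%. In place of edgeR, DESeq2 gave 0, 3, 2, 4 and 4 of the 5 genes, against 0.485%, 1.27%, 0.866%, 0.767% and 0.817% of 44570 genes. With limma-voom the counts were 0, 4, 4, 5 and 5, against 1.19%, 2.04%, 4.2%, 1.73% and 2.78% of all genes, and neither tool passed any of the 7 after adjustment.

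Single libraries moved these counts. Fits without an hC4A/A library are not counted here. They leave 1 library in that group, and the filter then keeps other genes (15669 or 14564 tested, against 12680). The edgeR count in hC4A/- became 0 without hC4A/- replicate 1, 2 or 5, and 3 without C4-/- replicate 3 or hC4B/- replicate 3. The last 2 libraries are outside that contrast and act through the filter and the shared fit. In hC4B/- it became 0 without hC4B/- replicate 1, 1 without hC4B/- replicate 2, and 4 without WT replicate 4 or C4-/- replicate 1. The share of all genes was 3.06% to 4.24% in hC4A/- and 1.99% to 5.26% in hC4B/-. These ranges cover the fits that leave out a library other than WT replicate 2 or an hC4A/A library. In these fits the count stayed at 0 in hC4A/A and at 4 or 5 in C4-/- and in the 4 together. For the 4 other genotypes together, Ngp had a log2 fold change of -3.34 ± 1.00 (SE) with an adjusted p of 0.299 in edgeR, Lcn2 -3.17 ± 1.01 with 0.368 and S100a9 -3.28 ± 1.08 with 0.406. Camp (-3.11 ± 1.03) and S100a8 (-2.97 ± 1.07) had adjusted p values of 0.406 and 0.434.

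The lower values rested largely on WT replicate 2. Without it, the filter kept 5 of the 7 genes (not Ltf and Mmp8), and 0 of these 5 were lower at an unadjusted p under 0.05 in any of the 5 contrasts, where 0.961%, 3.17%, 2.66%, 2.78% and 3.77% of all genes were. The median log2 fold change moved to -1.06 in hC4A/A, -1.08 in hC4A/-, -1.09 in hC4B/-, -2.58 in C4-/- and -1.53 in the 4 together. Ngp then had log2 fold changes of 0.033 in hC4A/A and 0.074 in hC4A/-, on the other side of 0. With the 4 broad libraries left out instead, 0, 0, 0, 5 and 5 of the 5 genes were lower at an unadjusted p under 0.05, with 0.928%, 5.42%, 3.36%, 4.48% and 8.12% of all genes. Without the filter on low counts, edgeR passed 1 of the 7 genes (Mmp8) at an adjusted p under 0.05 in hC4A/-, 3 (Lcn2, Ngp and Mmp8) in C4-/- and all 7 in the 4 other genotypes together, against 0.145%, 0.0579% and 0.581% of 44941 genes. With Gm10800 removed from the counts it passed 1 (Mmp8, tested through its WT counts) in the 4 together, against 0.111% of all genes. These adjusted calls include Ltf and Mmp8. WT replicate 2 alone held 60.8% of all Ltf counts and 77.0% of all Mmp8 counts.

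**Figure D3:**
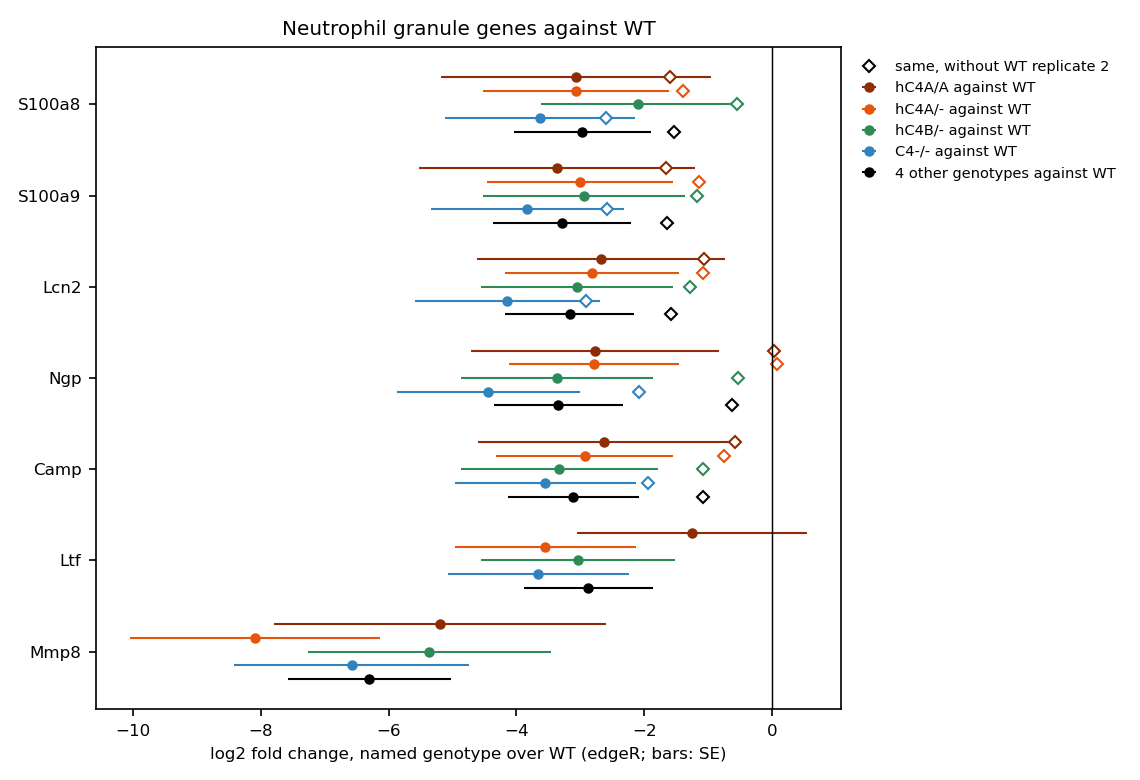
edgeR log2 fold change of each gene in hC4A/A, hC4A/-, hC4B/-, C4-/- and the 4 together over WT (filled circles, bars 1 SE), and the same without WT replicate 2 (open diamonds). All filled circles lie below 0, and the diamonds lie nearer to 0. Ltf and Mmp8 passed the filter on low counts only with the help of WT libraries, and without WT replicate 2 they have no value.

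The genotypes with human C4 were then compared with C4-/-. Again 0 of the 7 genes passed in edgeR, where 0% of the genes tested did, and 0 of the 7 differed at an unadjusted p under 0.05 in hC4A/A, hC4A/- or hC4B/- against C4-/-, where 2.17%, 10.7% and 4.52% of all genes did. The fitted log2 fold changes of S100a8, S100a9, Lcn2, Ngp and Camp were above 0 in each of the 3, with medians of 0.92, 0.82 and 1.07. Of all genes, 50.8%, 61.7% and 51.2% were below 0. Nearly all counts of C4-/- came from replicate 1, with 253 of 263, and without it the medians were 4.95, 4.81 and 4.60. All 5 genes were then higher at an unadjusted p under 0.05 in hC4A/A, hC4A/- and hC4B/-, where 1.33%, 2.15% and 1.68% of all genes were, and 0 of the 7 passed the adjusted threshold. C4-/- replicates 2 to 5 held 0, 9, 0 and 1 counts of the 7 genes. The larger values therefore follow from leaving out replicate 1, and no conclusion is drawn from them. In hC4A/- against hC4B/-, 3 of the 5 genes were above 0 and 2 below, with a median of 0.23, against 53.7% of all genes below 0. Of the 7, 0 passed an unadjusted p of 0.05, against 16.7% of all genes. With all libraries, DESeq2 and limma-voom gave 0 of the 7 genes higher and 0 lower at an unadjusted p under 0.05 in these 4 contrasts, where 0.536% to 0.835% (DESeq2) and 0.875% to 3.91% (limma-voom) of all genes were higher, and 0.366% to 8.16% and 0.315% to 4.92% were lower.

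Other genes of neutrophils were followed to see how far they shared the pattern of the 7. Azurophil granule genes were close to absent: Mpo had 19 counts over the 20 libraries, with at most 4 in 1 library, and was at 0 in all 4 WT libraries. Elane, Prtn3, Ctsg and Ms4a3 had 7, 9, 1 and 2 counts. The summed level of these 5 genes was 0.322 to 6.48 CPM in hC4A/A, 0 to 0.537 in hC4A/-, 0 to 12.1 in hC4B/-, 0 to 3.93 in C4-/- and 0 to 0.767 in WT, and its highest value was in a broad library. Cebpe, a factor of late granule gene expression, had 5 counts in all, with at most 2 in 1 library.

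The other late granule genes were detected, at low counts. Chil3, a chitinase-like protein, had 83 counts in C4-/- replicate 1, 56 in WT replicate 2 and at most 11 elsewhere. Haptoglobin (Hp) had at most 9 counts in a library of the other genotypes, against 83, 16, 6 and 0 counts in the WT libraries. Pglyrp1, which binds bacterial peptidoglycan, had 16 counts in hC4B/- replicate 3 and 13 in WT replicate 2. The gelatinase Mmp9, the surface protein Cd177, Olfm4 and Itgb2l had 27, 35, 26 and 35 counts in all. Mmp9 was highest in hC4B/- replicate 2, with 6 counts. Olfm4 and Itgb2l were highest in hC4B/- replicate 3, with 5 and 12. Both are broad libraries, and the highest WT counts of these 3 genes were 3, 3 and 5. Cd177 had 12 counts in WT replicate 2 and 7 in the broad library hC4A/A replicate 2. The summed level of the 8 genes was 2.90 to 38.9 CPM in hC4A/A, 1.02 to 12.4 in hC4A/-, 2.56 to 36.8 in hC4B/-, 0 to 58.1 in C4-/- and 9.34 to 75.5 in WT. The values of 38.9 and 36.8 CPM were in broad libraries, hC4A/A replicate 2 and hC4B/- replicate 3. Of these 8 genes 4 could be tested, and 0 passed in edgeR in any contrast with WT, where 0% of all genes passed. At an unadjusted p under 0.05 in edgeR, 1 of the 4 was lower in C4-/- and 1 in the 4 genotypes together. The share of all genes was 2.79% and 4.7% there. In hC4A/A, hC4A/- and hC4B/- 0 were lower, against 1.07%, 4.12% and 3.83% of all genes. Whether these 4 genes passed the filter only with the help of WT was not examined.

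Markers of mature neutrophils showed the same libraries in part. Ly6g, the surface protein that defines mouse neutrophils, had 12 counts in hC4A/- replicate 1 and 11 in WT replicate 2, with at most 3 in any other library. Retnlg, a secreted resistin-like protein, had 2 counts over the 16 libraries of the other genotypes, against 5, 13, 1 and 6 counts in the WT libraries. Fpr2, a formyl peptide receptor that also binds the Camp peptide, had 25 and 28 counts in hC4A/- replicates 3 and 4, and 49, 128, 5 and 1 counts in the WT libraries. Hdc, which makes histamine, had 65 of its 97 counts in WT replicate 4. Ifitm6, Wfdc21 and Il1r2 had 49, 42 and 36 counts in all. Csf3r, the receptor for granulocyte colony-stimulating factor, was present in every library with 21 to 403 counts, including the 3 libraries with 0 counts of the 7 genes. The 15 markers without Csf3r summed to 2.90 and 45.4 CPM in hC4A/A, 0.537 to 20.6 in hC4A/-, 0.427 to 38.6 in hC4B/-, 0 to 12.1 in C4-/- and 22.2 to 144 in WT. The values of 45.4 and 38.6 CPM were in broad libraries, hC4A/A replicate 2 and hC4B/- replicate 2. They exceeded WT replicates 1, 3 and 4, at 28.4, 22.2 and 32.9 CPM. These broad libraries held only 36 and 25 counts of the 7 genes, so the markers did not follow the 7 genes there. Of the 16 genes 4 could be tested, and 0 passed in edgeR in any contrast with WT, where 0% of all genes passed. At an unadjusted p under 0.05, edgeR had 0 of the 4 lower in hC4A/A and 1 each in hC4A/- and hC4B/-. In C4-/- and in the 4 genotypes together, 2 were lower. The share of all genes was 1.07%, 4.12%, 3.83%, 2.79% and 4.7%, in the same order. Whether these 4 genes passed the filter only with the help of WT was not examined, so no conclusion is drawn.

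Of the 8 receptors through which the secreted proteins act, 5 were detected in all 20 libraries. Tlr4, a receptor of calprotectin, had 11 to 257 counts, and its partners Ly96 and Cd14 had 1 to 33 and 9 to 243 counts in each library. Slc22a17, a receptor for lipocalin 2, had 2 to 48 counts, and Lrp1, which takes up lactoferrin among many ligands, had 43 to 1865. The other 3 were detected in part of the libraries: Ager, a receptor of S100 proteins, in 11 with 39 counts in all, Lrp2, an endocytic receptor, in 11 with 62 counts, and Fpr2 in 9 with 244 counts. All 8 receptor genes could be tested, and 0 passed in edgeR in any contrast with WT, where 0% of all genes passed. At an unadjusted p under 0.05 in edgeR, 1 of the 8 was lower in each of hC4B/-, C4-/- and the 4 together. The share of all genes was 3.83%, 2.79% and 4.7% there. In hC4A/A and hC4A/- 0 were lower, against 1.07% and 4.12% of all genes. Of the granule transcription factors, Runx1 had 54 to 583 counts, Spi1, which encodes PU.1, had 28 to 417 and Cebpa had 3 to 73 in each library. Cebpd had 0 to 48 counts, and Gfi1 had 33 in all, in 11 libraries. Of these 6 factors, Cebpe included, 4 could be tested and 0 passed in edgeR in any contrast with WT, as did 0% of all genes. Runx1 had a log2 fold change of -1.36 ± 0.64 (SE) in hC4B/-, and its edgeR p values were 0.0406 unadjusted and 0.377 adjusted there, and 0.0436 and 0.505 in the 4 together, where it was also below 0. These ranges of counts cover libraries with and without neutrophil granule transcripts.

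Markers of other blood cells were followed beside these results, and their part in them was not tested. The 4 globin genes had 30 and 69 counts in hC4A/- replicates 2 and 4, 29 in hC4B/- replicate 4 and 27 in WT replicate 2, and at most 1 in any other library. These globin-bearing libraries range from 1 count of the 7 genes, in hC4A/- replicate 2, to 1988, in WT replicate 2. The 8 monocyte markers, all of them detected, summed to 4.51 and 62.2 CPM in hC4A/A, 2.69 to 50.02 in hC4A/-, 10.96 to 34.2 in hC4B/-, 13.1 to 65.3 in C4-/- and 2.34 to 41.4 in WT. The 12 lymphocyte markers summed to 9.35 and 32.4 CPM in hC4A/A, 0.687 to 27.6 in hC4A/-, 4.38 to 28.9 in hC4B/-, 1.86 to 35.1 in C4-/- and 4.98 to 11.5 in WT. The values of 62.2 and 32.4 CPM were in the broad library hC4A/A replicate 2, and 28.9 CPM in the broad library hC4B/- replicate 2. The highest values, 65.3 and 35.1 CPM, were in C4-/- replicates 2 and 1, which are not broad. Cd79b held 377 of the 482 lymphocyte counts. The T cell receptor subunits Cd3d, Cd3e and Cd3g had 12, 10 and 17 counts in 6, 6 and 8 of the 20 libraries, with 2 counts of Cd3g in WT replicate 3 and 0 of the other two in WT. The monocyte and lymphocyte ranges of WT lay within the combined range of the other genotypes, except for the lowest monocyte value, in WT replicate 1. The microglia markers summed to 7748 CPM in WT replicate 2 and to 8439 to 10479 CPM in the other WT libraries.

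**Figure D4:**
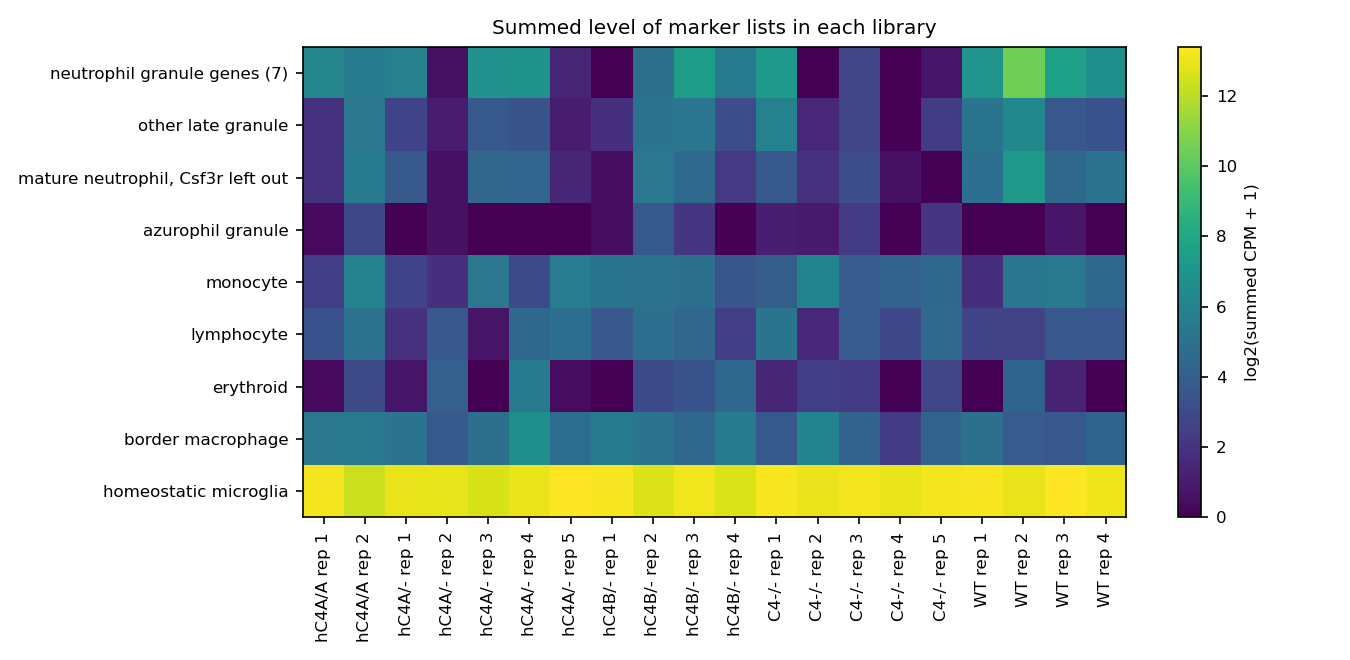
Summed level of marker lists, as log2(summed CPM + 1) in colour, in each of the 20 libraries (columns, by genotype). The row of the 7 genes runs from 0 to 1415 CPM, while homeostatic microglia markers stay between 5049 and 10712 CPM in every library.

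The genes whose profile over the 20 libraries was most like the mean of the 7 included known neutrophil genes. By Pearson correlation of log2 CPM, Chil3 came first (r = 0.803, and 0.719 over the 19 libraries without WT replicate 2), and Fpr2 followed (0.766 and 0.607). Anxa1, a protein abundant in neutrophils, had 0.727 and 0.612, Hp 0.704 and 0.664, and Pglyrp1 0.700 and 0.593. The other 5 of the first 10 were Ebpl (0.754 and 0.583), Armc8 (0.748 and 0.698), Bfar (0.716 and 0.601), Bcas3os1 (0.703 and 0.525) and Gm42848 (0.703 and 0.497). Without WT replicate 2, Armc8 was second to Chil3 among these 10 genes. Among the 7 themselves, the correlation of each gene with the mean of the other 6 ran from 0.617 for Mmp8 to 0.942 for Ngp. These correlations describe libraries that share depth and scaling and that fall into ones with and ones without the transcripts, and they carry no test.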

How the data were processed

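Per the labels' protocols, RNA of sorted microglia was reverse transcribed with template switching, amplified and made into Nextera libraries. The deposited files hold whole-number read counts per gene for each library, in the layout STAR writes. Per the submitters' processing notes, the build was GRCm38 and the tools were STAR and edgeR. Tool versions and the gene annotation the authors counted over were not given in the sources used here. Of the deposited count columns the unstranded one was used, and rows for unmapped, multimapping, featureless (21.8% to 42.1% of reads) and ambiguous reads were left out. A series matrix with 20 per-sample columns was not used. Groups and replicate numbers come from the sample titles. Each library is 1 mouse per the protocol, and within a genotype the chi-square per degree of freedom between libraries was 26.3 to 142, where sampling noise alone gives about 1, so no pair was a copy.

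Symbols, coordinates and exon lengths come from GENCODE annotation of GRCm38, and promoters from RefSeq. All 20 libraries entered 1 edgeR 4.0.16 quasi-likelihood fit (R 4.3.3, filterByExpr by genotype, TMM scaling, robust, 15 residual degrees of freedom, common dispersion 1.07), with Benjamini-Hochberg adjustment over 12680 genes, and the fit was tested on simulated data. The SE of a log2 fold change was obtained by dividing it by the square root of F. CPM are scaled by the TMM factors over the genes kept. Correlations used a prior count of 2. Alternatives were DESeq2 1.42.0, limma-voom (limma 3.58.1), RLE scaling, no filter, the replicate number as a block, only the groups compared, Gm10800 removed, the 4 broad libraries left out and each library left out. All 7 genes are named. From the neutrophil lists, genes were named if they had at least 10 counts over the 20 libraries, at most 8 a list by total count. Elane, Prtn3, Ctsg, Ms4a3 and Cebpe fall outside this rule and were named after their counts were seen. The 10 most similar genes were taken by correlation. Members and lists were chosen with earlier results of these data known. The protocol names no molecular identifiers, so counting intervals and floors leave out the error of amplification and of sampling mice.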

Additional observations from a re-analysis of the deposited data

Results flagged for a closer look

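A gap test on CPM was run in groups of 4 or 5 libraries. In 17 of the 32 combinations of gene (or sum) and genotype, the highest library was far from the others. Chance passes this test in about 1 of 20 groups of normally distributed values. These CPM are skewed and hold many zeros, so that rate does not apply to them. The genes share libraries, so the combinations are not independent. hC4B/- replicate 3, a broad library, was far above the other hC4B/- libraries for S100a8 (65.3 CPM) and S100a9 (86.4). C4-/- replicate 1 was far above the other C4-/- libraries for S100a8 (33.4 CPM), S100a9 (67.9), Lcn2 (12.1), Ngp (8.05), Camp (19.6) and the sum (146). For Mmp8 in C4-/-, the value of 0.655 CPM in replicate 3, also a broad library, is 1 count against 0 in the other 4. WT replicate 2 was far above the other WT libraries for all 7 genes: S100a8 at 243 CPM, S100a9 at 589, Lcn2 at 140, Ngp at 144, Camp at 159, Ltf at 71.9 and Mmp8 at 69.0, with a sum of 1415 CPM.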

How the results depend on the processing

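Without the filter on low counts, the number of the 7 genes past an adjusted p of 0.05 became 1 in hC4A/- against WT (Mmp8), 3 in C4-/- against WT (Lcn2, Ngp and Mmp8) and 7 in the 4 other genotypes against WT, where 0.145%, 0.0579% and 0.581% of all genes passed. With Gm10800 removed it became 1 (Mmp8) in the 4 together, where 0.111% of all genes passed. These calls include Ltf and Mmp8, whose counts were mostly in WT replicate 2. The cause of the changes was not tested. Over the contrasts with WT, 937 of 951 alternative values of single genes kept their direction and side of the threshold, 12 passed it and 2 changed sign. The 2 are Ngp without WT replicate 2, at 0.033 in hC4A/A and 0.074 in hC4A/-. Leaving out 1 library at a time, these ran from -4.27 to 0.033 and from -3.54 to 0.074. The tally is not a measure of robustness. In the main fit 0% of all genes passed, and many alternatives leave out a library outside the contrast. It also includes Ltf and Mmp8, which were tested only with the help of WT counts. The 7 genes vary together and the contrasts share the WT libraries, so the values are not independent. In the contrasts without WT, 50 of 748 values changed sign, and Mmp8 has no value where both groups held 0 counts. Mean summed CPM in hC4A/A became 83.5 with Gm10800 removed. The fit with a replicate block gave 0 calls in each contrast and 0, 0, 0, 3 and 4 of the 5 genes other than Ltf and Mmp8 at an unadjusted p under 0.05 in hC4A/A, hC4A/-, hC4B/-, C4-/- and the 4 together against WT, where 1.35%, 2.55%, 4.11%, 1.87% and 3.84% of all genes were lower. Replicate numbers did not pair libraries: same-numbered libraries of different genotypes had a median correlation of deviations of 0.008 (-0.301 to 0.697, 33 pairs, 5 over 0.1). For the 4 together, fitting only the groups compared is the same as fitting all libraries, and for hC4A/- and hC4B/- against C4-/- such a fit gave no value because none of the 7 genes passed its filter. Depth limits the rare genes most: a floor of 3 counts is 1.10 to 3.51 CPM of all gene counts, depending on the library.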
